A study of Homo sapiens with 6 samples.

Results

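Aurora kinases, polo-like kinases, checkpoint kinases of the spindle and the chromosomal passenger complex were described here by 10 genes, which are AURKA, AURKB, INCENP, BIRC5, CDCA8, PLK1, PLK4, BUB1, TTK and TPX2. The genes were chosen by name, the deposited transcripts were matched to their genes, and estimated counts were summed per gene, which found 10 of 10 genes among 21447 genes in all. The human osteosarcoma line U-2 OS was profiled by bulk RNA-seq, without synchronization, in 3 libraries of untreated cells and 3 libraries of cells that had received 4 Gy of ionizing radiation (IR) and were harvested 24 h later. Both groups grew in the same medium, and the labels name no genetic change in either. The paper describes its samples as distinct and independent, and the P values measure the spread between these libraries.

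The chromosomal passenger complex carries the kinase Aurora B (AURKB) on the scaffold INCENP, and Survivin (BIRC5) and Borealin (CDCA8) bring it to chromosomes, centromeres and the spindle midzone, where it corrects wrong attachments of microtubules and later helps to time cytokinesis. Aurora A (AURKA), held and activated on spindle microtubules by TPX2, and PLK1 drive entry into mitosis and build the spindle. PLK4 starts the duplication of centrioles, and BUB1 and TTK (also called MPS1) act in the spindle assembly checkpoint. In dividing cells most of these genes are transcribed in G2 and M phase, and cells with damaged DNA can be held before mitosis.

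After IR, 9 of the 10 genes fell and 0 rose at an adjusted P under 0.05 in the quasi-likelihood test of edgeR over 14323 genes, of which 14.5% were called lower and 15.5% higher. The log2 fold changes of the 9 lay between −0.57 for PLK4 and −0.24 for PLK1, which is a fall to between 67.2% and 84.4% of the untreated level. BIRC5 was not called, with a log2 fold change of 0.03 (95% confidence interval −0.13 to 0.19). The median over the 10 genes was −0.38, against 0.01 over all genes tested. In the same 9 genes each IR library was below each untreated library, a pattern found in 23.3% of all genes tested. All 9 were also called lower with the trend of GC content removed, but 4 of them when effective transcript length was used as an offset, as described further on. Bulk RNA-seq cannot tell apart fewer cells in G2 and M phase and less of these RNAs per cell.

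Libraries held between 18573309 and 45308792 estimated counts, and the 10 genes had between 738 (AURKB) and 14082 (BIRC5) counts in a library. IR replicate 3 was the most deeply sequenced, and its values therefore carry the least counting error. It was also the library that differed most from its own group over all genes. The mean chi-square per gene between libraries was 29.1 and 32.3 for IR replicate 3 against IR replicates 1 and 2. It was 5.96 between IR replicates 1 and 2 and 3.46 to 9.22 among untreated libraries. The cause was not tested. CDKN1A and MDM2, targets of p53 that respond to DNA damage, rose by 1.53 and 0.60 on the log2 scale, with every IR library above every untreated library. Of markers of the osteoblast lineage, 6 of 9 passed the filter on low counts, with COL1A1 and SPARC at the highest levels. SP7 was at 0 in all libraries, and BGLAP and IBSP stayed under the filter. The summed level of the 9 markers was 4462 to 4927 CPM in untreated and 4689 to 5312 CPM in IR libraries. For these sums, CPM are read counts scaled to the library total, before the TMM scaling that is used for single genes. Most of the sum came from COL1A1 and SPARC, which were not called. With the GC trend removed COL1A1 was called lower (−0.20 on the log2 scale, adjusted P = 0.0285). Of the less abundant markers, COL1A2 had a mean of only 1.48 CPM in untreated and 1.81 CPM in IR libraries and was not called. ALPL was called higher, from a low mean of 1.87 to 4.00 CPM (1.09 on the log2 scale, adjusted P = 0.00716). RUNX2 was called lower (−0.36, adjusted P = 0.025), but not with the length offset (adjusted P = 0.692). The sums were 11.6 to 12.6 and 12.1 to 14.2 CPM over 4 epithelial markers, and 3.14 to 4.38 and 3.41 to 5.18 CPM over 3 endothelial markers, in untreated and IR libraries respectively. Of these markers CDH1 was called higher (0.61, adjusted P = 0.0465), though not with the length offset (adjusted P = 0.311). The leukocyte marker PTPRC was at 1.48 ± 0.248 CPM in untreated and 0.878 ± 0.165 CPM in IR libraries (SD, n = 3), which did not overlap, and was not called by edgeR (−0.77, adjusted P = 0.0607). The part of these markers in the results was not tested.

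Promoters of the members are shown for the letters of 2 elements that recur in promoters of G2 and M phase genes. These are the cell cycle genes homology region (CHR), which complexes containing MuvB bind, and the CCAAT box, which NF-Y binds. The part of these elements in the fall of the 9 genes was not tested. The RefSeq promoter table (GRCh38.p14) held windows from 250 bases before to 50 bases after a start for 6 of the 10 genes (INCENP, CDCA8, PLK1, BUB1, AURKB and PLK4). AURKA, BIRC5, TTK and TPX2 had no entry. Both strands were searched for the CHR words TTTGAA and TTTAAA with the variant TTCGAA, for CCAAT, and for E2F sites as TTGGCGC or TTCCCGC and as TTCGCGC or TTGCCGC. The stretches below run from 120 bases before the start (160 for AURKB) to 10 bases after it, at chr11:62123891-62124020 on the forward strand for INCENP, chr1:37692396-37692525 on the forward strand for CDCA8, chr16:23678769-23678898 on the forward strand for PLK1, chr2:110678054-110678183 on the reverse strand for BUB1 and chr17:8210216-8210385 on the reverse strand for AURKB. Capitals mark the letters searched for, and ATTGG is CCAAT on the other strand.
INCENP: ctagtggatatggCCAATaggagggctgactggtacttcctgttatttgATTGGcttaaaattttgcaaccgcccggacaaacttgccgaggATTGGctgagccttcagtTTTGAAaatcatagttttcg
CDCA8: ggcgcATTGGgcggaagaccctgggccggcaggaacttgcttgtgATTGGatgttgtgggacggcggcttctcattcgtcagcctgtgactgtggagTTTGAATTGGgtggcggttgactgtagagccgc
PLK1: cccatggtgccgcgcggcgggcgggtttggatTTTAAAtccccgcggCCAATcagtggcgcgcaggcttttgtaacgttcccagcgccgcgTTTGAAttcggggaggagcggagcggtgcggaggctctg
BUB1: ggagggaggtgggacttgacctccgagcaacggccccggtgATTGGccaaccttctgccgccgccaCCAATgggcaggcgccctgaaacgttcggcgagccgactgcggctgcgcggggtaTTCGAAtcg
AURKB: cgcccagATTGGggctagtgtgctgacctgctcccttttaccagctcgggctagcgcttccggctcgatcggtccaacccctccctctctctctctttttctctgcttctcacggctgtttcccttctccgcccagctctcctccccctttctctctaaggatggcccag

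INCENP, CDCA8 and PLK1 each held TTTGAA just before the start, beginning 10, 23 and 29 bases before it, and BUB1 held TTCGAA beginning at base 2 after it. In CDCA8 the TTTGAA and an ATTGG share a base. The nearest CCAAT or ATTGG began 28 bases before the start in INCENP, 18 in CDCA8, 73 in PLK1 and 54 in BUB1. AURKB, for which 2 overlapping windows are listed, held a single ATTGG and none of the CHR letters in either window. Those windows belong to starts at 8210225 and 8210249 on the reverse strand. The most used AURKB transcripts, AURKB-202, AURKB-214 and AURKB-201, start further upstream, at 8210581, 8210575 and 8210582. The bases just before these upstream starts were not searched. AURKB-204, with a mean of 7.58% of the counts of the gene, starts at 8210224. PLK4 has 3 windows, of which the first held TTTGAA at base 39 after its start, the second TTGGCGC and the third CCAAT, all on the reverse strand. Over all 35116 windows of the same length, 25.1% held any of the 3 CHR words, 15.2% TTTGAA, 34.6% CCAAT and 13.0% any of the 4 E2F words, so that single matches are common. A match in these letters is not a bound site, and a window without a match says only that the letters are not there.

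INCENP, the scaffold of the passenger complex, is on chromosome 11 of GRCh38 from 62123998 to 62153169 (19 exons in its canonical transcript). Its level was 119, 117 and 102 TMM-scaled CPM in untreated replicates 1, 2 and 3, and 83.6, 82.5 and 78.1 CPM in IR replicates 1, 2 and 3. All IR libraries were below all untreated libraries, of which replicate 3 was the lowest. The log2 fold change of INCENP was −0.47 (SE 0.07, adjusted P = 0.00209 from edgeR), the lowest of the 4 genes of the complex. CDCA8, which links the complex to chromatin, is on chromosome 1 from 37692481 to 37709719 (10 exons). It was at 122, 115 and 117 CPM in untreated and 82.4, 87.7 and 94.4 CPM in IR libraries. IR replicate 3 was the highest IR library and still below every untreated one, and CDCA8 had a log2 fold change of −0.42 (SE 0.07, adjusted P = 0.00245).

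AURKB, the kinase of the complex, is on chromosome 17 from 8204733 to 8210600 (9 exons) and had the lowest counts of the 10 genes. Untreated libraries had 44.1, 45.7 and 48.6 CPM and IR libraries 36.0, 40.2 and 38.5 CPM. The groups did not overlap, but IR replicate 2 came close to untreated replicate 1. AURKB changed by −0.27 on the log2 scale (SE 0.07, adjusted P = 0.0201), and it was not called without untreated replicate 2 (adjusted P = 0.0626) or without untreated replicate 3 (adjusted P = 0.0726).

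BIRC5, which encodes Survivin, a subunit that reads phosphorylated histone H3 at centromeres, is on chromosome 17 from 78214186 to 78225636 (4 exons). It was at 284, 271 and 287 CPM in untreated libraries whereas IR libraries had 269.8, 277 and 312 CPM. IR replicates 1 and 2 lay within or just below the untreated range and IR replicate 3 above it. The edgeR test gave an adjusted P of 0.784 (SE of the log2 fold change 0.07), and without IR replicate 3 the log2 fold change was −0.05 (adjusted P = 0.585). The interval of −0.13 to 0.19 leaves room for a fall or a rise of that size, so a lack of change is not shown. The 9 other genes were each below their untreated mean in all 3 IR libraries.

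AURKA, on chromosome 20 from 56369389 to 56392337 on the reverse strand (9 exons), was at 156, 146 and 149 CPM in untreated and 126, 121 and 122 CPM in IR libraries. The IR libraries lay close together and below all untreated ones. AURKA changed by −0.29 on the log2 scale (SE 0.06, adjusted P = 0.00719). TPX2, its activator, lies on the same chromosome from 31739271 to 31801805 (18 exons) and had the highest CPM of the 10 genes in untreated cells, at 356, 359.7 and 392 CPM. In IR replicates 1, 2 and 3 it was at 302, 302 and 265 CPM, so that replicate 3 was the lowest. TPX2 changed by −0.35 on the log2 scale (SE 0.07, adjusted P = 0.00681). The 3 processed pseudogenes AURKAP1, AURKAP2 and BUB1P1 are annotated but were not among the genes matched in the files, so reads from them, if any, could have been assigned to AURKA or BUB1.

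PLK1, which promotes mitotic entry and spindle assembly, is on chromosome 16 from 23677656 to 23690367 (10 exons). It had 123, 119 and 118 CPM in untreated and 97.8, 102 and 105 CPM in IR libraries. This was the smallest fall among the 9 called genes (log2 fold change −0.24, SE 0.06, adjusted P = 0.0153), and it was not called without untreated replicate 1 (adjusted P = 0.0735), untreated replicate 2 (adjusted P = 0.0551) or IR replicate 2 (adjusted P = 0.0513). Exons of PLK1 overlap those of ERN2 on the opposite strand, which had only 6 to 8 counts in a library, and those of a long non-coding RNA that is not in the files. Whether counting used the strand is not given in the sources used here.

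PLK4, the kinase of centriole duplication, is on chromosome 4 from 127880893 to 127899224 (16 exons). It was at 66.3, 67.6 and 68.8 CPM in untreated and 48.5, 48.4 and 39.8 CPM in IR libraries. Its log2 fold change was the lowest of the 10 genes (−0.57, SE 0.09, adjusted P = 0.00146), and IR replicate 3 was the lowest library. Without IR replicate 3 the log2 fold change was −0.49 (adjusted P = 0.000412). Of all genes tested, 4.14% had a log2 fold change below that of PLK4.

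BUB1, which recruits checkpoint proteins and phosphorylates histone H2A at centromeres, is on chromosome 2 from 110637528 to 110678063 on the reverse strand (25 exons). The 3 untreated libraries were all at 211 CPM, and IR libraries were at 154, 149 and 144 CPM. It had the lowest P of the 10 genes (log2 fold change −0.50, SE 0.06, adjusted P = 0.000612). TTK, which starts checkpoint signalling at unattached kinetochores, is on chromosome 6 from 80003887 to 80042527 (22 exons). It fell from 72.9, 73.3 and 75.9 CPM to 53.6, 53.5 and 46.8 CPM (log2 fold change −0.53, SE 0.07, adjusted P = 0.00118). As in PLK4 and TPX2, the value in IR replicate 3 was below the other two IR libraries.

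For single genes, the two-sided exact permutation test on log2 CPM gave P = 0.1 for each of the 9 called genes, the smallest that 3 libraries against 3 allow, and P = 0.9 for BIRC5. On log2 TPM the exact permutation test gave P = 0.2 for PLK4, whose untreated replicate 1 (35.1 TPM) was below IR replicate 1 (38.0 TPM), and left the other 8 called genes at P = 0.1. The median log2 change of the 10 genes against the untreated mean was −0.39, −0.37 and −0.40 in IR replicates 1, 2 and 3, and 0.01, 0.02 and 0.01 over all genes tested.

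**Figure D1:**
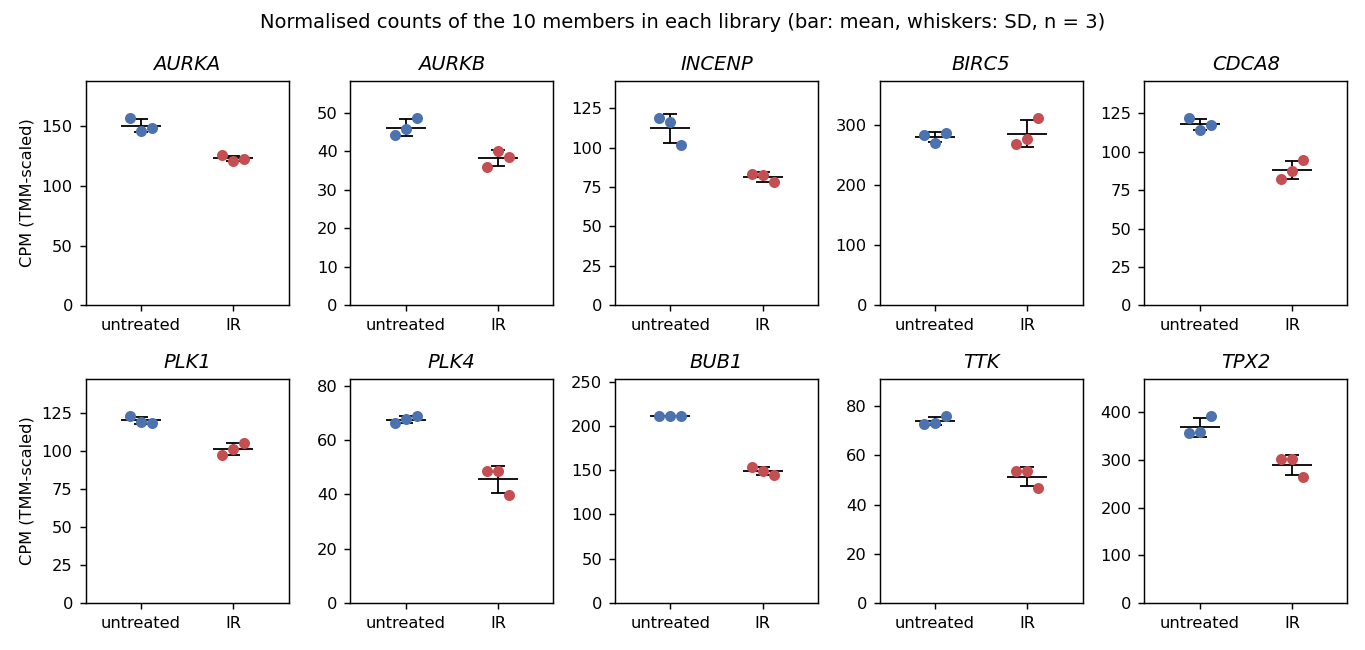
CPM (vertical axes, from 0) of each of the 10 genes in each library, with points for libraries, a bar for the mean and whiskers for the SD (n = 3). In 9 panels the IR points sit below all untreated points, and in the panel of BIRC5 the groups overlap.

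Levels of different genes were compared per length, in TPM. In untreated cells TPX2 (153 ± 6.10 TPM, SD, n = 3), BUB1 (147 ± 6.71 TPM) and BIRC5 (144 ± 9.34 TPM) were the highest and overlapped in their libraries. AURKA (117 ± 5.30 TPM) and PLK1 (103 ± 8.84 TPM) came next, each apart from its neighbours in this order. AURKB (58.2 ± 9.32 TPM), TTK (57.3 ± 1.37 TPM), CDCA8 (53.2 ± 3.58 TPM), INCENP (47.7 ± 6.28 TPM) and PLK4 (44.2 ± 8.19 TPM) were the lowest, and each overlapped with the next. After IR, BIRC5 was first by its mean, at 142 ± 25.2 TPM, followed by TPX2 at 118 ± 4.36 TPM and BUB1 at 96.5 ± 7.84 TPM. INCENP was last, at 30.8 ± 0.435 TPM.

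Ratios of TPM between partners in the same library were compared for 6 pairs. The ratio of BIRC5 to INCENP was 2.92, 2.55 and 3.77 in untreated and 4.35, 4.02 and 5.45 in IR libraries. It was the only one of the 6 ratios whose groups did not overlap (difference of 0.59 on the log2 scale, two-sided exact permutation P = 0.1, adjusted P = 0.6). The ratio of AURKB to INCENP was 1.07, 0.999 and 1.69 in untreated and 1.62, 1.61 and 1.47 in IR libraries, with untreated replicate 3 apart from the other two (exact permutation P = 0.4). For CDCA8 to INCENP, AURKA to TPX2, PLK1 to PLK4 and BUB1 to TTK the differences were 0.22, 0.01, −0.17 and 0.15 on the log2 scale (exact permutation P = 0.3, 0.8, 0.6 and 0.2). The sign for PLK1 to PLK4 depended on the scale, at 0.33 with CPM in place of TPM (exact permutation P = 0.1). With CPM the differences were also smaller for AURKB to INCENP (0.19 in place of 0.36), CDCA8 to INCENP (0.041) and BUB1 to TTK (0.03). CDCA8 to INCENP was at 0.10 without IR replicate 3 and at 0.14 without untreated replicate 2, and AURKB to INCENP at 0.22 without untreated replicate 2 and 0.60 without untreated replicate 3. No ratio could pass a threshold of 0.05 with 3 libraries against 3.

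Fold changes after IR followed the GC content of transcripts over all genes tested. The median log2 fold change rose from −0.19 in the eighth of genes with the lowest GC content, where 32.7% were called lower, to 0.34 in the highest eighth, where 0.614% were. TTK (36.7% GC) and PLK4 (38.4%) are in the lowest eighth and BUB1 (41.8%) in the next, and these 3 genes had the lowest log2 fold changes of the 10. INCENP (58.3%) is in the seventh, and AURKB (55.8%) and PLK1 (55.3%) in the sixth, where few genes were called lower (3.02% and 6.48%). After removal of the GC trend, fitted per library, all 9 genes were still lower and 0 higher, beside 13.0% of all genes tested that were called lower. The order changed. INCENP then had the largest fall, at −0.66 (adjusted P = 0.00038), PLK4 was at −0.40, BUB1 at −0.38, TTK at −0.34, and AURKA had the smallest fall, at −0.22 (adjusted P = 0.0184). BIRC5 was at 0.01.

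**Figure D2:**
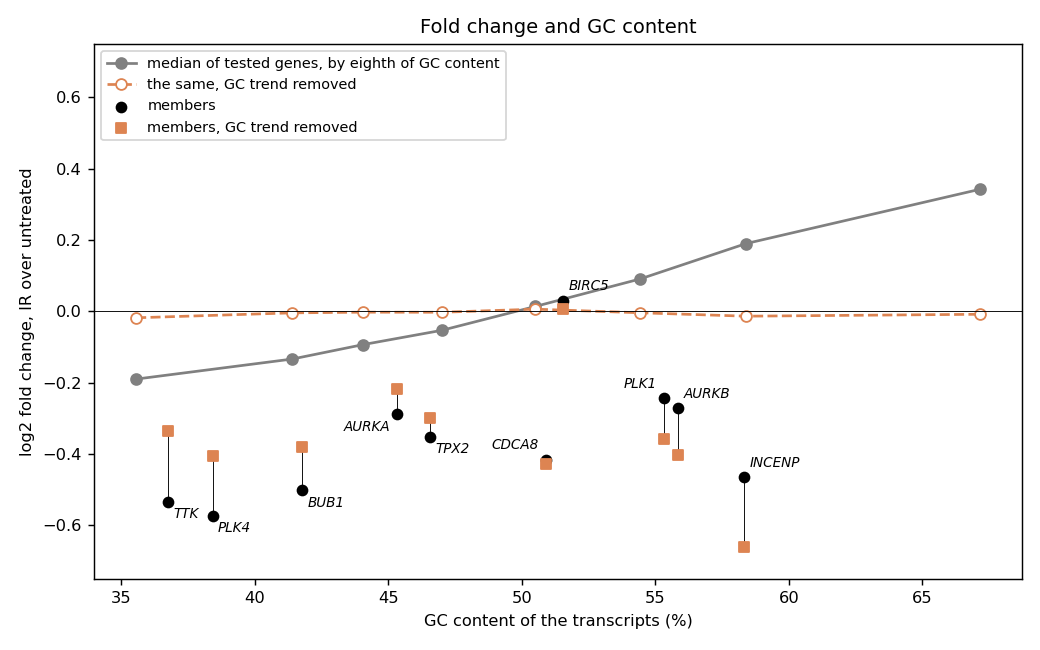
Log2 fold change, IR over untreated (vertical axis), against the GC content of transcripts in percent (horizontal axis). Grey points are medians of all genes tested in 8 equal groups, drawn at the middle of the range of each group, black points are the 10 genes, and orange points the same with the GC trend removed. Without the trend the 9 called genes lie between −0.66 and −0.22 and BIRC5 at 0.01.

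Using kallisto's effective lengths per library as an offset lowered the number of called genes, over all genes (6.11% lower) and among the 10. TTK (−0.71, adjusted P = 0.00748), INCENP (−0.59, adjusted P = 0.0186), BUB1 (−0.55, adjusted P = 0.0183) and PLK1 (−0.43, adjusted P = 0.0324) were then called lower. AURKA (adjusted P = 0.0513), TPX2 (adjusted P = 0.0534) and CDCA8 (adjusted P = 0.0641) missed the threshold with log2 fold changes of −0.32, −0.32 and −0.36. PLK4 was at −0.27 (adjusted P = 0.237) and AURKB at −0.22 (adjusted P = 0.294). The direction of the 9 genes was downward in each of the 15 alternatives run.

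**Figure D3:**
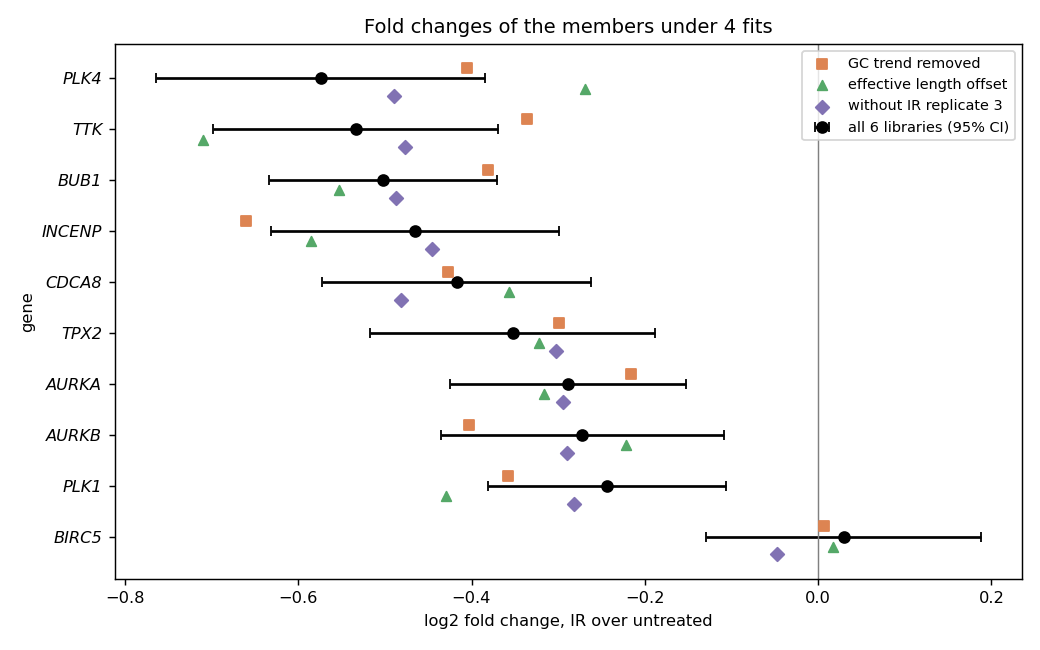
Log2 fold change, IR over untreated (horizontal axis), of the 10 genes (vertical axis), with the 95% confidence interval for the fit to all 6 libraries. Squares show the fit with the GC trend removed, triangles that with an effective length offset and diamonds that without IR replicate 3. Apart from BIRC5, all points lie below 0.

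Transcripts of the 10 genes were compared for those with at least 5% of the counts of their gene. Usage of transcripts was tested with diffSpliceDGE of edgeR, which called 2.67% of 10666 genes. Among the 10 genes it called TTK alone (adjusted P = 0.00458). The transcript behind the call, TTK-210, which was singled out after its values were seen, is 584 bases long, has no defined coding sequence and held 29.6, 39.3 and 18.5 estimated counts in untreated and 0, 0.336 and 0 in IR libraries. This is 2.39% or less of the counts of TTK, and the call was lost without any 1 of the IR libraries and when transcripts needed 10 counts in every library. The canonical transcript of TTK, TTK-202, held between 82.9% and 92.7% in all libraries.

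The main transcript of BIRC5, BIRC5-202, was steady, at 71.0%, 69.8% and 70.4% of the counts of the gene in untreated and 69.3%, 70.0% and 70.0% in IR libraries. TPX2-201 held 96.9% to 99.3% in all libraries. AURKA-204, with 8 exons against 9 in the canonical form, held 41.0%, 32.0% and 31.6% in untreated and 24.0%, 23.4% and 4.42% in IR libraries, and the canonical AURKA-208 held 34.1%, 35.9% and 43.6% and then 42.7%, 38.2% and 58.5%. The groups of AURKA-204 did not overlap, but IR replicate 3 was far from the other two, and usage of AURKA was not called by diffSpliceDGE. Transcripts of 1 gene share most of their sequence, so their estimates are uncertain. In AURKB the leading form differed between replicates of 1 group, with AURKB-214 at 35.9%, 35.3% and 9.29% in untreated libraries.

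The other genes of the pathway were taken from 5 lists. Of 17 tested other mitotic kinases, 8 fell and 2 rose, with a median log2 fold change of −0.23 (PLK5 was below the filter). BUB1B, the checkpoint partner of BUB1, was at 177, 179 and 194 CPM in untreated and 131, 126 and 106 CPM in IR libraries (log2 fold change −0.60, adjusted P = 0.0013). WEE1, which holds CDK1 inactive, and PBK also fell, by 0.32 and 0.27 on the log2 scale, but not with the GC trend removed (adjusted P = 0.0998 and 0.191). The polo-like kinases PLK2 and PLK3, which take part in stress responses, rose. PLK2 was at 85.0, 90.9 and 96.6 CPM in untreated and 156, 169.6 and 178 CPM in IR libraries, and PLK3 at 12.2, 13.6 and 12.3 CPM and then 22.8, 24.1 and 26.1 CPM. The log2 fold changes were 0.88 (adjusted P = 0.000169) and 0.94 (adjusted P = 0.000263), so that within the polo-like family PLK1 and PLK4 were called lower and PLK2 and PLK3 higher, also with the GC trend removed, whereas with the length offset PLK4 was not called. CDK1 itself was not called (−0.13, adjusted P = 0.169). With the GC trend removed, 4 other kinases were lower and 3 higher. The 8 lower calls became 3, 4 and 5 without untreated replicates 1, 2 and 3, and 3 without IR replicate 2.

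Of 16 activators and scaffolds of the kinases, 11 fell and 0 rose (median −0.46, and 10 lower with the GC trend removed). The lowest P were those of STIL, which PLK4 binds at the centriole (−0.64, adjusted P = 0.000338), KNL1, the kinetochore platform of BUB1 (−0.71, adjusted P = 0.000395), and ERCC6L, a DNA translocase of anaphase bridges (−0.58, adjusted P = 0.0013). Docking factors and effectors of the passenger complex had the most calls, with 14 of 15 lower and 0 higher (median −0.39), and 14 again with the GC trend removed. SGO2, which protects centromeric cohesion, was at −0.67 (adjusted P = 0.000632), ECT2, an exchange factor of cytokinesis, at −0.47 (adjusted P = 0.00115) and KIF20A, a kinesin of the midzone, at −0.41 (adjusted P = 0.00209). CENPA, the histone of centromeres, was the one not called (−0.26, adjusted P = 0.052).

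Of 16 opposing phosphatases, 3 fell (PPP1CB, PPP6R3 and PPP2R5E, by 0.36, 0.36 and 0.24 on the log2 scale) and 1 rose (PPP2R5B, by 0.65, from a low level of 12.9 to 20.1 CPM), with a median of −0.10. Their share of lower calls was near that of all genes, and with the GC trend removed PPP1CB (adjusted P = 0.107) and PPP2R5E (adjusted P = 0.575) were not called. Of 15 transcription factors of the G2 and M phase programme, 7 fell and 0 rose (median −0.22). RBL1, the p107 subunit of repressor complexes, was at −0.65 (adjusted P = 0.000708), LIN54, the subunit of MuvB that binds the CHR, at −0.52 (adjusted P = 0.00363), and NFYA, a subunit of NF-Y, at −0.34 (adjusted P = 0.011). MYBL2 and FOXM1, activators of this programme, fell by 0.22 and 0.22 on the log2 scale (adjusted P = 0.031 and 0.0327). With the length offset RBL1 and LIN54 were still called lower, but NFYA, MYBL2 and FOXM1 were not (adjusted P = 0.0801, 0.328 and 0.0955). With the GC trend removed 5 of the 15 were lower, and 3, 2 and 4 were without untreated replicates 1, 2 and 3.

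Among genes used as a check of proliferation, MKI67 (−1.10, adjusted P = 0.00042) and TOP2A (−0.54, adjusted P = 0.0013) fell. With the length offset MKI67 was at −0.74 (adjusted P = 0.0118), and TOP2A was not called (−0.42, adjusted P = 0.07). PCNA (0.00, adjusted P = 0.979) and MCM2 (−0.19, adjusted P = 0.124) were not called, although MCM2 was lower with the GC trend removed (−0.39, adjusted P = 0.00195). The part of a change in cell cycle phases in the fall of the 9 genes was not tested. Over the 6 libraries, the genes outside the 10 whose centred log2 CPM lay closest to the mean profile of the 10 included MCM10, COA1, PSRC1 and CYTH3, with root mean square differences of 0.0207 to 0.0276 on the log2 scale and log2 fold changes between −0.37 and −0.32.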

How the data were processed

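Per the labels and the paper, the authors extracted RNA with TRIzol, trimmed reads with fastp and assigned them with kallisto to GENCODE release 37 (GRCh38); the kallisto version is not given in the sources used here. The paper names a total RNA kit and the labels an mRNA kit. The deposited files give, per transcript, an estimated count without normalization and a TPM value, which the authors' tool scales to effective length and depth. Transcripts were matched to GENCODE release 44 (158711 matched, 2460 not, with at least 98.2% of counts kept), and the estimated counts of a gene were added up and rounded to whole numbers.

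Genes were filtered by filterByExpr, scaled by TMM and tested by glmQLFTest of edgeR 4.0.16 (limma 3.58.1, R 4.3.3) with Benjamini-Hochberg adjustment over all genes tested and a threshold of 0.05. DESeq2 1.42.0 served as an alternative. Standard errors (SE) were taken from F statistics, with 95% confidence intervals. Exact permutation tests (scipy) were two-sided. Scripts were tested on simulated data, in which the test of transcript usage had low power at the spread of these transcripts. Counts were simulated with 200 genes changed by a known amount. With a GC trend left in place, as in the main fit, the quasi-likelihood test called 402 unchanged genes among 14229 tested. That is more than the 200 changed genes, so the threshold of 0.05 did not hold its error rate there. The same test called 12 unchanged genes with the trend removed and 15 where no trend was added.

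Members and lists were chosen with earlier results of these data known. Genes named from the other lists are up to 3 of lowest P per direction and those not measured, others named were chosen after their values were seen, and the nearest genes are the 5 with the smallest root mean square difference. Some items that these rules select are not reported here. Replicates of 1 group differed by more than sampling noise, so none was counted as a copy. The file name of IR replicate 3 has an extra mark, and whether this library was sequenced again is not given in the sources used here.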

Additional observations from a re-analysis of the deposited data

How the results depend on the processing

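The 9 members called lower after IR were also 9 under both other filters on low counts, DESeq2 size factors, the DESeq2 Wald test, the likelihood ratio test, the replicate block and removal of the GC trend. They numbered 7 to 9 when each library was left out in turn (median log2 fold change −0.40 to −0.36) and 4 with the effective length offset (median −0.34). BIRC5 turned from 0.030 to −0.048 without IR replicate 3 and reached 0.056 without IR replicate 1. Over all genes, 2227 were higher and 2080 lower, against 837 and 875 with the length offset, 1581 higher and 1868 lower with the GC trend removed, 1389 and 1638 with that and a replicate block, and 1295 to 2114 higher and 1244 to 2284 lower without 1 library. Without untreated replicate 1 there were 1295 higher and 1287 lower, and without untreated replicate 2 there were 1357 and 1244. The 8 other mitotic kinases called lower became 5 with the replicate block, 4 with the GC trend removed, 4 with both, 3 with the length offset and 3 to 9 without 1 library. The 14 docking factors and effectors became 9 with the length offset. The 7 transcription factors became 4 with the replicate block, 2 with the length offset and 2 to 7 without 1 library. The replicate block left the 9 calls of the members in place. Libraries with the same replicate number showed no shared deviation from their group means, with correlations of −0.02, 0.01 and −0.05. Whether the replicate numbers pair the libraries is not given in the sources used here. The log2 ratio of PLK1 to PLK4 turned from −0.17 to 0.33 with CPM and spanned −0.29 to 0.014 without 1 library, and that of AURKA to TPX2 spanned −0.041 to 0.066. Transcript usage was called for 285 genes, 65 with 10 counts in every library, 149 with the block and 228 to 443 without 1 library (443 without untreated replicate 3), and the call of TTK went to 0 with 10 counts in every library and to 0 or 1 without 1 library. The cause of these changes was not tested. AURKB had the fewest counts of the members, and minor transcripts had few or no counts in some libraries.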
